A study of Mus musculus with 10 samples.

Results

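Replication-dependent histone genes encode the core histones H2A, H2B, H3 and H4 and the linker histone H1 that package newly made DNA. In this series of mouse arrays, 53 of 19505 annotated genes belonged to the family by their symbol. They were 4 H1, 13 H2A, 15 H2B, 10 H3 and 11 H4 genes, with 1 row of values for each, although rows of near-identical genes can share probes. By their older symbols, 45 lie in the large histone cluster Hist1 and 8 in the smaller cluster Hist2. The RefSeq gene table held 64 symbols of this form, of which 11 were not analysed here. The symbol rule also takes genes that are not strictly tied to replication. H2ac1 and H2bc1 are best known from testis, and H1f2, H2ac6, H2bc4 and H2bc21 are also made as polyadenylated transcripts in cells that have stopped dividing.

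The samples were C57BL/10 mice, labelled WT + GFP or WT + oncogenic Vav1 for the construct put into transferred T cells. The transferred CD4+ T cells expressed GFP or oncogenic Vav1, and the immunocompromised recipients were examined at 6 months. Vav1 relays signals from the antigen receptor of T cells to the cytoskeleton and to transcription. There were 2 arrays of GFP spleen, 4 of oncogenic Vav1 spleen, 2 of GFP lymph node and 2 of oncogenic Vav1 lymph node. The 10 arrays came from 7 animals, of which CTL2, ONCO2 and ONCO3 gave both tissues. Recipient genotype, the mutation carried by Vav1, and animal age were not given in the sources used here. Each array is taken as a separate animal of its group, and p-values rest on the spread within groups, pooled over all 10 arrays. A p-value for a tissue therefore does not measure the spread between the few animals of that tissue alone.

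Most replication-dependent histone genes are transcribed when DNA is copied, under the coactivator NPAT, which cyclin E and CDK2 activate. Their transcripts end in a stem-loop bound by SLBP instead of a poly(A) tail, and are degraded when replication stops. In lymphoid organs they are known as a readout of how much DNA synthesis is under way. The priming used to label the RNA was not given in the sources used here. An array reading of transcripts without a poly(A) tail can depend on it.

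Histone promoters are short and carry recurring elements, and those of 5 loci are printed as RefSeq gives them for GRCm38.p6. They show the H1, H2A, H2B, H3 and H4 classes described in the results, and H2ac6 is shown as a gene that did not pass the test in either tissue. Capitals mark the TATA box TATAAA, the CCAAT box and the octamer ATTTGCAT, in either orientation. The first 4 are the 150 bases before the transcription start, read along the gene. The last holds the 177 bases between the starts of H2ac12 and H2bc12, read along the plus strand, with H2ac12 leaving the left end and H2bc12 the right end.
H1f1 (chr13:23763518-23763667, plus strand): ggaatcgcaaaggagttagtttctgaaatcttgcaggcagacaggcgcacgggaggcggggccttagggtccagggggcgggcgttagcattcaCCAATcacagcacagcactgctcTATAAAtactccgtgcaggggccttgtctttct
H3c8 (chr13:23535268-23535417, plus strand): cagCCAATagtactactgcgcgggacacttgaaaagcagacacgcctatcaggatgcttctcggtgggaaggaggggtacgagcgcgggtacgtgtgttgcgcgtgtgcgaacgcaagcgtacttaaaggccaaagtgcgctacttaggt
H4c6 (chr13:23551669-23551818, minus strand): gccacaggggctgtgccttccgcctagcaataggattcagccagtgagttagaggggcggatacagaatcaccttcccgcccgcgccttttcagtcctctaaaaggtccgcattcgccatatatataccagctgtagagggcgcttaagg
H2ac6 (chr13:23683960-23684109, minus strand): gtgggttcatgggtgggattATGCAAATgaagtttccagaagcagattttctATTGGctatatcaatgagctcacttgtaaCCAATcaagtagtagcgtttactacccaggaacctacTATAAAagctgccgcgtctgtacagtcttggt
H2ac12 and H2bc12 (chr13:22035644-22035820, plus strand): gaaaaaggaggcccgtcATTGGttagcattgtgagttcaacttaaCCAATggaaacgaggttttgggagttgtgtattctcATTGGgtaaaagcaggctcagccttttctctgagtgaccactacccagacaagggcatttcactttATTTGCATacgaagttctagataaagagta

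RefSeq promoter windows, from 250 bases before to 50 after the start, were matched for 48 members. The other members are H2bc21, H2bc4, H3c1, H3c7 and H4c14. On either strand, CCAAT stood in 41 of the 48 windows (85.4%) against 37.4% of all 32851 windows of the table. All H1, H2A, H2B and H3 windows held it, and 3 of 10 H4 windows did. TATAAA stood in 28 windows (58.3%, against 13.6% of all windows). ATTTGCAT stood in 12 windows (25%, against 1.74% of all windows), 6 of H2A and 6 of H2B genes, and in no H1, H3 or H4 window. None of these motifs contains another. Windows of H2A and H2B genes that start back to back cover much of the same DNA, so their matches are partly shared. A match describes the letters alone and can lie anywhere in the window. The TATAAA matches of H4c6, H2ac12 and H2bc12 lay outside the stretches printed.

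In the spleen, histone transcripts of every class were higher with oncogenic Vav1. Of the 52 members that lay above the filter on low values, 46 rose, none fell and 6 did not pass (limma, Benjamini-Hochberg adjusted p under 0.05 over 13393 genes). Of all genes tested, 26.8% were called in this comparison and 17.1% were called higher. The members' log2 changes (oncogenic Vav1 minus GFP) ran from 0.07 to 1.56 with a median of 0.98, beside a median of 0.0019 over all genes tested. The remaining member, H3c1, was under the filter and read 3.72 to 4.20 on the log2 scale on all arrays. For 49 of the 52 members, each oncogenic Vav1 array lay above both GFP arrays, which held for 30.3% of all genes tested. Leaving out GFP spleen replicate 1, which leaves 1 GFP spleen array, lowered the count the most. Most of the 46 calls were then lost, as were most of the calls over all genes tested, and the members' median was 0.87.

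In the lymph node, 47 of 52 members rose with oncogenic Vav1, none fell and 5 did not pass. Of all genes tested, 18.7% were called in this comparison and 7.87% were called higher. The log2 changes ran from 0.12 to 2.49 with a median of 1.45, beside a median of -0.02 over all genes tested. Both oncogenic Vav1 arrays lay above both GFP arrays for 50 members, and for 24.2% of all genes tested. The count was between 41 and 51 with any of the 10 arrays left out. It was 12 when the 4 lymph node arrays were fitted without the spleen arrays, which leaves 2 residual degrees of freedom. In all, 45 members rose in both tissues, H2bc4 in the spleen but not past the threshold in the lymph node, and H2ac21 and H4c9 the other way round. H1f2, H2ac6, H2bc1 and H2bc21 passed in neither tissue.

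**Figure D1:**
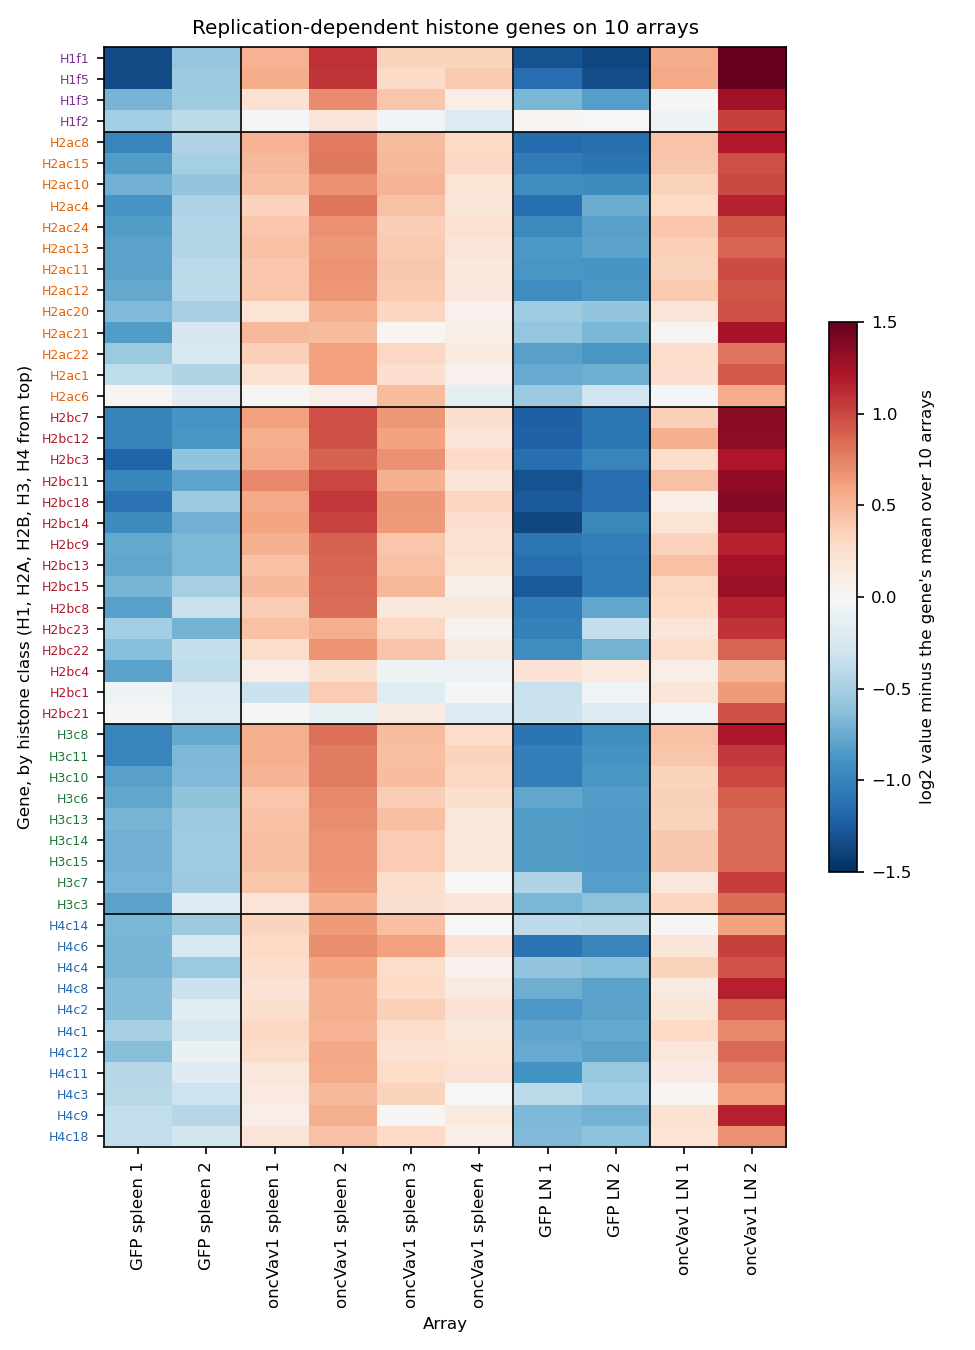
Log2 value of 52 histone genes (rows, by class and, within a class, by spleen change) on 10 arrays (columns; LN, lymph node; oncVav1, oncogenic Vav1), each minus the gene's mean over the 10 arrays. Blue GFP columns and red oncogenic Vav1 columns recur in most rows, with the deepest red in oncogenic Vav1 lymph node replicate 2, which held the highest value of 51 of the 52 genes.

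H1, the linker histone, binds the DNA between nucleosomes and compacts the fibre. Of its 4 genes 3 rose in each tissue, and the class medians were 1.25 in the spleen and 1.83 in the lymph node, where H1f1 had the largest change of all members. H1f1 read 8.56 and 9.33 in the GFP spleens and 10.43, 11.00, 10.24 and 10.24 in the oncogenic Vav1 spleens. The lymph node readings were 8.60 and 8.55 with GFP and 10.46 and 11.67 with oncogenic Vav1. In both tissues the groups were apart, with a rise of 1.53 (SE 0.33, adjusted p = 0.0083 by limma, 2.89-fold) in the spleen and 2.49 (SE 0.38, adjusted p = 0.0015, 5.63-fold) in the lymph node. H1f5 read 8.42 and 9.22 against 10.32, 10.84, 10.05 and 10.16 in the spleen, and 8.63 and 8.43 against 10.33 and 11.26 in the lymph node. Its groups did not overlap either, and it rose by 1.52 (SE 0.30) and 2.27 (SE 0.35). For both genes the first GFP spleen array lay well below the second. Without it the spleen changes were 1.15 (adjusted p = 0.12 by limma) for H1f1 and 1.12 (adjusted p = 0.087) for H1f5. H1f3 rose by 0.98 (SE 0.28) in the spleen and 1.39 (SE 0.33) in the lymph node.

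H1f2, the H1 gene also expressed in resting cells, was the member of its class that passed in neither tissue. It read 8.04 and 8.17 in the GFP spleens and 8.53, 8.75, 8.52 and 8.36 with oncogenic Vav1. In the lymph node it read 8.59 and 8.55 with GFP and 8.48 and 9.59 with oncogenic Vav1, so that the GFP arrays lay between the oncogenic Vav1 arrays. The changes of 0.43 (SE 0.24, adjusted p = 0.21 by limma) and 0.46 (SE 0.28, adjusted p = 0.30) did not pass. Its spleen change passed with array weights (adjusted p = 0.036 by limma) and in a fit of the spleen arrays alone (adjusted p = 0.021). The lymph node change was -0.09 (adjusted p = 0.77) without the second oncogenic Vav1 array and 1.01 (adjusted p = 4e-04) without the first.

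Among H2A genes, 11 of 13 rose in the spleen (median of the class 1.01) and 12 of 13 in the lymph node (median 1.54). H2A pairs with H2B on the outside of the nucleosome. H2ac8 read 10.52 and 11.06 in the GFP spleens against 12.03, 12.28, 11.98 and 11.81 with oncogenic Vav1. The lymph node arrays read 10.35 and 10.37 against 11.94 and 12.70. It rose by 1.24 (SE 0.22) in the spleen and 1.96 (SE 0.25, 3.88-fold) in the lymph node, with no overlap of the groups. Its spleen call was lost without GFP spleen replicate 1 (0.97, adjusted p = 0.057 by limma). H2ac15 read 10.73 and 11.07 against 12.06, 12.35, 12.06 and 11.87 in the spleen, and 10.52 and 10.47 against 11.99 and 12.53 in the lymph node. It rose by 1.18 (SE 0.18) and 1.76 (SE 0.20).

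H2ac22 and H2ac13 read near the top of the scale, where the deposited values end at 13.9. H2ac22 read 11.84 and 12.17 against 12.76, 13.02, 12.71 and 12.54 in the spleen, and 11.60 and 11.53 against 12.66 and 13.20 in the lymph node. H2ac13 read 11.43 and 11.79 against 12.67, 12.89, 12.62 and 12.43 in the spleen, and 11.37 and 11.43 against 12.59 and 13.11 in the lymph node. Both were apart by construct in each tissue. H2ac13 rose by 1.04 (SE 0.17) and 1.45 (SE 0.20), and H2ac22 by 0.75 (SE 0.17) and 1.37 (SE 0.20). The spleen call of H2ac22 was lost without GFP spleen replicate 1 (0.58, adjusted p = 0.13 by limma). H2ac1, H2ac4, H2ac10, H2ac11, H2ac12, H2ac20 and H2ac24 rose in both tissues, between 0.70 (H2ac1) and 1.12 (H2ac10) in the spleen and between 1.14 (H2ac20) and 1.66 (H2ac4) in the lymph node. H2ac21, of the Hist2 cluster, changed by 0.82 (SE 0.30, adjusted p = 0.064 by limma) in the spleen and rose by 1.27 (SE 0.34) in the lymph node.

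H2ac6, whose promoter is printed with both a TATA box and an octamer, was the H2A gene that passed in neither tissue. It read 8.75 and 8.56 in the GFP spleens and 8.74, 8.83, 9.20 and 8.59 with oncogenic Vav1, where the arrays were mixed. In the lymph node it read 8.17 and 8.43 against 8.71 and 9.29, and the groups were apart. The changes were 0.18 (SE 0.20, adjusted p = 0.51 by limma) and 0.70 (SE 0.23, adjusted p = 0.060). Leaving out oncogenic Vav1 lymph node replicate 1 brought the lymph node change past the threshold (0.99, adjusted p = 0.0029 by limma).

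**Figure D2:**
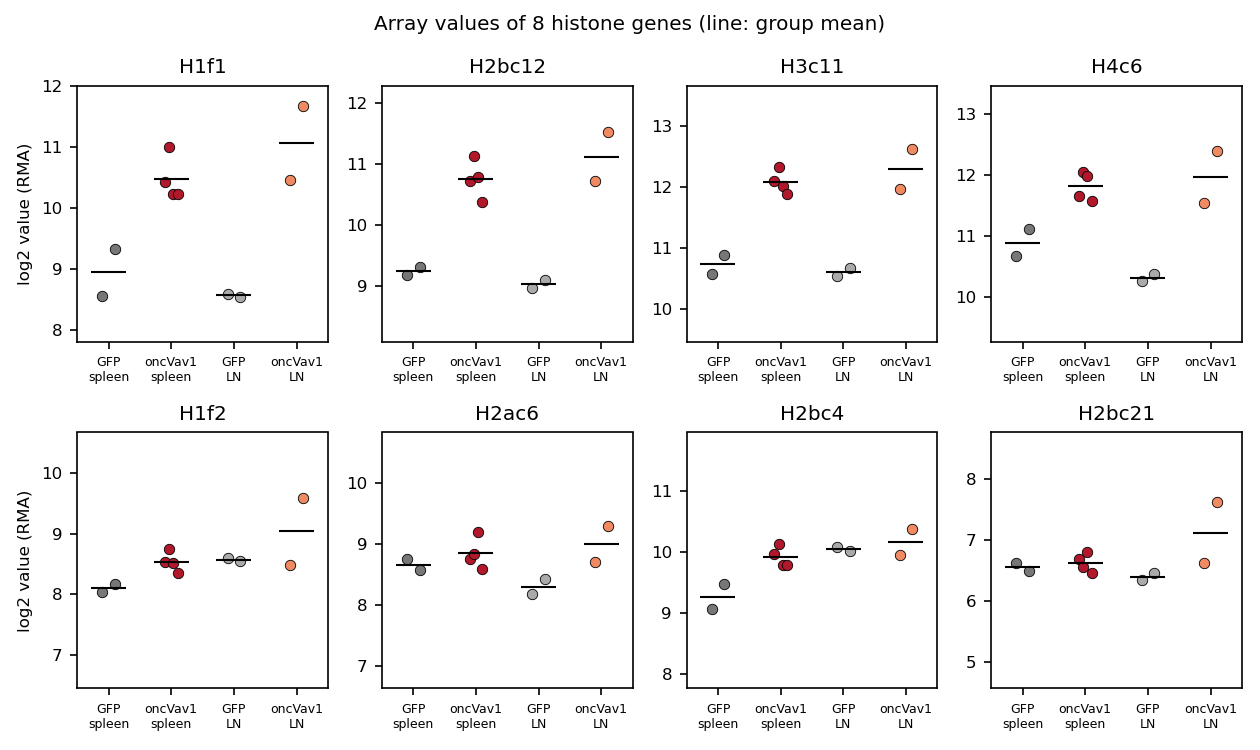
Deposited log2 values of 8 histone genes by group, with a point for each array and a line at the group mean (2, 4, 2 and 2 arrays; LN, lymph node), on axes of equal span. H1f1, H2bc12, H3c11 and H4c6 in the upper row separate by construct in both tissues, while H1f2, H2ac6, H2bc4 and H2bc21 in the lower row overlap in at least 1 tissue.

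The H2B class rose in 13 of 15 members in the spleen (median 1.21) and 12 of 15 in the lymph node (median 1.81). H2bc12, whose start lies opposite that of H2ac12, read 9.17 and 9.31 in the GFP spleens and 10.73, 11.14, 10.78 and 10.37 with oncogenic Vav1. Its lymph node values were 8.97 and 9.09 against 10.71 and 11.52. The rise was 1.51 (SE 0.23, 2.85-fold) in the spleen and 2.09 (SE 0.27, 4.25-fold) in the lymph node. H2bc11 read 9.14 and 9.33 against 10.84, 11.11, 10.64 and 10.29 in the spleen, and 8.81 and 8.97 against 10.56 and 11.44 in the lymph node. It rose by 1.49 (SE 0.25) and 2.11 (SE 0.29). For both genes, every oncogenic Vav1 array lay above every GFP array, including those of the other tissue.

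H2bc15 read 9.91 and 10.12 against 11.10, 11.46, 11.11 and 10.70 in the spleen, and 9.35 and 9.56 against 10.92 and 11.91 in the lymph node. H2bc13 read 9.43 and 9.53 against 10.64, 11.07, 10.64 and 10.41, and 9.07 and 9.14 against 10.64 and 11.45. The groups were apart in both. H2bc15 rose by 1.07 (SE 0.26) and 1.96 (SE 0.30), and H2bc13 by 1.21 (SE 0.22) and 1.94 (SE 0.26). Both spleen calls were lost without GFP spleen replicate 1 (adjusted p = 0.12 and 0.052 by limma), and that of H2bc15 also without GFP spleen replicate 2 (adjusted p = 0.058). The other H2B genes that rose in both tissues were H2bc3, H2bc7, H2bc8, H2bc9, H2bc14, H2bc18, H2bc22 and H2bc23. Their changes lay between 0.88 (H2bc22) and 1.56 (H2bc7) in the spleen and between 1.32 (H2bc23) and 2.01 (H2bc7) in the lymph node.

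H2bc4, H2bc21 and H2bc1 stood apart within the H2B class. H2bc4 read 9.05 and 9.47 in the GFP spleens and 9.96, 10.12, 9.79 and 9.77 with oncogenic Vav1, a rise of 0.65 (SE 0.16, adjusted p = 0.017 by limma) that was lost without GFP spleen replicate 1 (0.44, adjusted p = 0.19). In the lymph node its GFP arrays read 10.07 and 10.01, between the oncogenic Vav1 arrays at 9.95 and 10.37, and the change was 0.12 (SE 0.19, adjusted p = 0.72). H2bc21 read 6.63 and 6.48 against 6.68, 6.56, 6.80 and 6.46 in the spleen, and 6.34 and 6.45 against 6.62 and 7.62 in the lymph node. Its spleen arrays were mixed (0.07, SE 0.23, adjusted p = 0.85 by limma), and its lymph node change of 0.72 (SE 0.27, adjusted p = 0.093) rested mostly on the second oncogenic Vav1 array. H2bc1 read 5.28 to 6.25 over all arrays, near the 40th percentile of an array (5.64 to 5.84), and changed by 0.10 (adjusted p = 0.74) and 0.61 (adjusted p = 0.12).

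All 9 H3 genes tested rose in both tissues, with medians of 1.06 in the spleen and 1.47 in the lymph node. H3 and H4 form the tetramer at the centre of the nucleosome. H3c8 read 9.94 and 10.17 in the GFP spleens against 11.48, 11.76, 11.40 and 11.21, and 9.83 and 10.00 against 11.37 and 12.14 in the lymph node. H3c11 read 10.57 and 10.88 against 12.10, 12.33, 12.00 and 11.89, and 10.53 and 10.66 against 11.96 and 12.62. The constructs were apart in both tissues for both genes. H3c8 rose by 1.41 (SE 0.21) and 1.84 (SE 0.24), and H3c11 by 1.36 (SE 0.19) and 1.70 (SE 0.21). The other H3 genes rose by between 0.78 (H3c3) and 1.25 (H3c10) in the spleen and between 1.23 (H3c3) and 1.62 (H3c10) in the lymph node, H3c6 and H3c7 among them.

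H3c13, H3c14 and H3c15 of the Hist2 cluster cannot be told apart on these arrays. The values of H3c14 and H3c15 were identical on every array, and those of H3c13 lay within 0.0738 of them. H3c14 read 11.00 and 11.19 against 12.17, 12.39, 12.11 and 11.90 in the spleen, and 10.89 and 10.87 against 12.13 and 12.57 in the lymph node. The change of this reading was 1.05 (SE 0.16) in the spleen and 1.47 (SE 0.18) in the lymph node. H2ac11 and H2ac24 likewise stayed within 0.0898 of each other on all arrays. Probes of other near-identical histone genes may also be shared, so the count of members overstates the number of separate measurements.

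H4 genes rose in 10 of 11 cases in the spleen and in all 11 in the lymph node. The class had the lowest spleen median, 0.69, and a lymph node median of 1.29. H4c1 read 11.97 and 12.22 against 12.78, 12.99, 12.75 and 12.64 in the spleen, and 11.68 and 11.70 against 12.77 and 13.19 in the lymph node. H4c6, whose printed stretch held none of the motifs searched, read 10.66 and 11.12 against 11.66, 12.05, 11.98 and 11.57, and 10.26 and 10.37 against 11.54 and 12.39. The groups were apart in both tissues. H4c1 rose by 0.69 (SE 0.14) and 1.29 (SE 0.16), and H4c6 by 0.93 (SE 0.23) and 1.65 (SE 0.27).

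Several spleen calls of H4 genes rested on few arrays. Without GFP spleen replicate 1, those of H4c1 (adjusted p = 0.085 by limma), H4c6 (adjusted p = 0.17), H4c8 (adjusted p = 0.24) and H4c11 (adjusted p = 0.22) were lost. H4c8 read 10.11 and 10.44 against 10.97, 11.29, 11.05 and 10.89, and 10.03 and 9.96 against 10.89 and 11.92. It rose by 0.78 (SE 0.24, adjusted p = 0.035) and 1.41 (SE 0.27), and its spleen change also missed the threshold when GFP spleen replicate 2 (adjusted p = 0.079 by limma), any oncogenic Vav1 spleen array (adjusted p = 0.050 to 0.083) or either GFP lymph node array (adjusted p = 0.056) was left out. H4c11 read 11.66 and 11.90 against 12.26, 12.66, 12.37 and 12.32, and 11.19 and 11.52 against 12.22 and 12.83, with rises of 0.62 (SE 0.18) and 1.17 (SE 0.21). Leaving out GFP spleen replicate 2 (adjusted p = 0.075 by limma) or oncogenic Vav1 spleen replicate 1, 2 or 4 (adjusted p = 0.050, 0.075 and 0.050) also ended its spleen call. After quantile normalization neither H4c8 (0.66, adjusted p = 0.072 by limma) nor H4c11 (0.50, adjusted p = 0.068) passed in the spleen. H4c2, H4c3, H4c4, H4c12, H4c14 and H4c18 rose in both tissues, and H4c9 in the lymph node (1.39, SE 0.26) with a spleen change of 0.60 (adjusted p = 0.077).

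Among H2A and H2B genes that start back to back most rose in both tissues, as did 45 of the 52 members tested. Pairs were sought among the 48 members with a promoter window, so H2bc4 and H2bc21, which have none, could not be paired. The RefSeq starts of 7 H2A and H2B pairs lay within 1000 bases of each other on opposite strands. In 6 of these pairs both genes rose in both tissues. The 6 are H2ac8 with H2bc8, H2ac11 with H2bc11, H2ac12 with H2bc12, H2ac13 with H2bc13, H2ac15 with H2bc15, and H2ac22 with H2bc22. In the seventh pair, with 280 bases between the starts, H2ac1 rose (0.70 in the spleen and 1.33 in the lymph node) while H2bc1 did not pass. Members of the Hist1 cluster rose in 40 of 44 cases in each tissue, and those of Hist2 in 6 of 8 in the spleen and 7 of 8 in the lymph node.

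**Figure D3:**
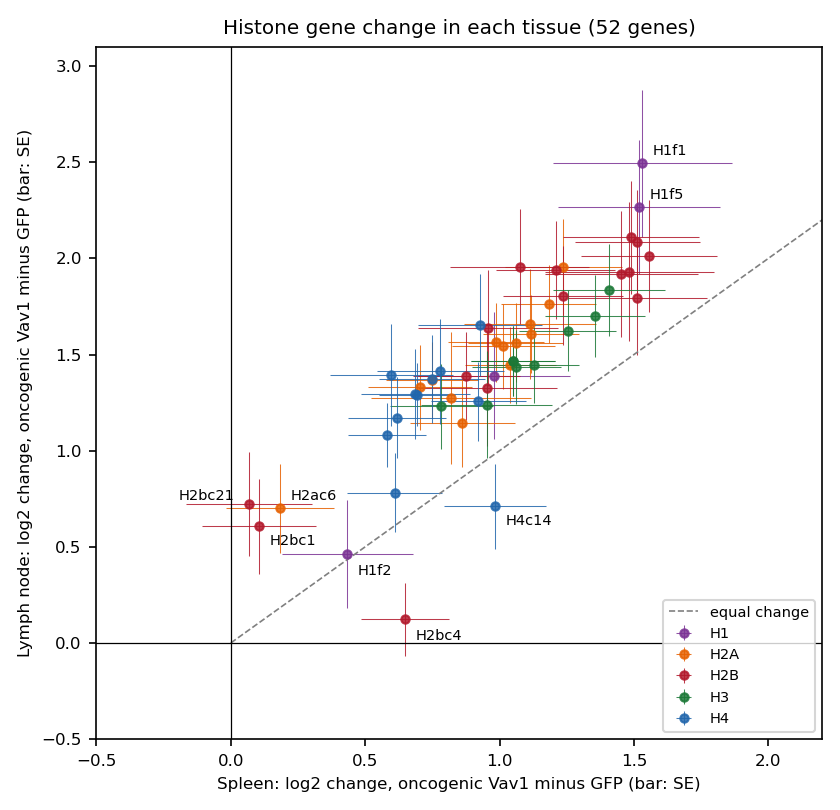
Log2 change (oncogenic Vav1 minus GFP) of each of 52 histone genes in the spleen (x axis) and lymph node (y axis), with standard errors as bars, colours for class and a dashed line of equal change. The lymph node change was the larger for 50 genes, H2bc4 and H4c14 lie under the line, and H1f2, H2ac6, H2bc1 and H2bc21 lie nearest the origin with H2bc4.

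Over both tissues, in a model with the animal as a block, 49 of 52 members rose and none fell, with a median of 1.26. Of all genes tested, 31.7% were called and 17.4% were called higher. H2ac6 (0.42, adjusted p = 0.071 by limma), H2bc1 (0.33, adjusted p = 0.12) and H2bc21 (0.35, adjusted p = 0.17) did not pass.

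The change was larger in the lymph node than in the spleen for 50 members, but the difference did not pass the test for any. The interaction called 0 of 52 members (limma, lowest adjusted p = 0.11 for H4c1), 6 at an unadjusted p under 0.05. Of all genes tested 8.04% were called, 0.933% with a more positive and 7.11% with a more negative change in the lymph node. The median difference of the members was 0.53, beside -0.01 over all genes tested. Both this count and the size depend on the oncogenic Vav1 lymph node arrays. Without replicate 1 of that group more members were called, as were more of all genes tested, and the members' median was 0.84. Without replicate 2 it was 0.14, with 1 member called, in the direction of a larger change in the spleen. In either fit the lone array is assumed to vary like the other groups.

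The pair of oncogenic Vav1 lymph node arrays differed from each other. All 52 members read higher in replicate 2 (animal ONCO3) than in replicate 1 (animal ONCO2), by a median of 0.70 and by 0.42 to 1.27, while 43.1% of all genes tested read higher in replicate 2. Within animals the order of the tissues was not the same. In ONCO3 all 52 members read higher in the lymph node than in the spleen, by a median of 0.64. In ONCO2, 1 of 52 did, and the median difference was -0.37. In CTL2, 17 of 52 did, with a median of -0.09.

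Between the tissues, few members differed within a construct. With GFP, 1 of 52 members passed (16.0% of all genes tested were called, 11.6% higher and 4.41% lower in the lymph node), namely H2bc4, which was 0.77 (SE 0.19, adjusted p = 0.021 by limma) higher in the lymph node. The members' median was -0.28, lower in the lymph node. Leaving out the second GFP spleen array made it -0.14 and leaving out the first -0.38, and it was -0.0091 with the median of the intronic control probe sets as a covariate. The H2bc4 call was lost without GFP spleen replicate 1 and without either GFP lymph node array, when 0 members were called. Leaving out either oncogenic Vav1 lymph node array raised the count of members. The count over all genes tested was likewise highest without replicate 2 of that group. With oncogenic Vav1, 0 of 52 members passed (limma, 1 at an unadjusted p under 0.05), beside 0.0373% of all genes tested, and the median was 0.26. Without oncogenic Vav1 lymph node replicate 1 the members' median was 0.61, and without replicate 2 it was -0.13. In the first of these fits more members passed, and so did more of all genes tested.

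In the spleen, the arrays of a group also differed in a shared way. Replicate 2 (animal ONCO2) was the highest of the 4 oncogenic Vav1 spleens for 49 of 52 members, and replicate 4 (animal ONCO4) the lowest for 45. Among the GFP spleens, 46 members read higher in replicate 2 than in replicate 1, by a median of 0.22 over all members. The mean over the 52 members was 9.76 and 10.02 in the GFP spleens, 10.84, 11.15, 10.84 and 10.64 in the oncogenic Vav1 spleens, 9.63 and 9.70 in the GFP lymph nodes and 10.75 and 11.50 in the oncogenic Vav1 lymph nodes.

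S phase genes were higher on the same arrays. Of 24 genes of DNA replication and nucleotide supply, 21 rose in the spleen (median 1.43) and 23 in the lymph node (median 1.62). Mcm2, part of the replicative helicase and a carrier of H3 and H4, read 7.69 and 7.83 in the GFP spleens against 9.20, 9.65, 8.94 and 9.05, and 7.73 and 8.01 against 9.43 and 9.91 in the lymph node. It rose by 1.45 (SE 0.21) and 1.80 (SE 0.24), with no overlap of the groups. Pcna, the sliding clamp of DNA polymerase, rose by 0.99 (SE 0.21) and 0.97 (SE 0.24). Rrm2, a subunit of ribonucleotide reductase, rose by 2.38 (SE 0.40) and 3.00 (SE 0.46), and Mcm3, Mcm6 and Cdc45 rose in both tissues as well. Pold1 passed in neither tissue (-0.27, adjusted p = 0.17 by limma, and 0.20, adjusted p = 0.46).

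Genes with a part in histone gene transcription rose in part. Of 11 such genes, 7 rose and 1 fell in the spleen, and 8 rose in the lymph node. Npat itself read 8.39 and 8.14 in the GFP spleens against 8.68, 8.84, 8.66 and 8.83, and 7.99 and 8.14 against 8.88 and 9.19 in the lymph node. It rose by 0.49 (SE 0.13, adjusted p = 0.023 by limma) and 0.97 (SE 0.15, adjusted p = 0.0018). The cyclin genes Ccne2 and Ccna2 rose by 2.07 (SE 0.38) and 2.26 (SE 0.39) in the spleen and by 2.91 (SE 0.43) and 2.80 (SE 0.45) in the lymph node. E2f1, Cdk2 and Cdc25a also rose in both tissues. Casp8ap2 (FLASH), a partner of NPAT at histone loci, changed by 0.32 (SE 0.14, adjusted p = 0.13) in the spleen and rose by 0.60 (SE 0.17, adjusted p = 0.030) in the lymph node. Hinfp, an activator of H4 genes, did not pass in either tissue (0.15 and 0.19), and Gon4l was the gene that fell in the spleen (-0.42, SE 0.11).

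Of 19 genes that process or degrade histone mRNA, 3 rose in the spleen (15.8%, beside 17.1% of all genes tested) and 2 in the lymph node (10.5%, beside 7.87%), with medians of 0.17 and 0.16. Over both tissues 6 rose and 1 fell. Slbp, the stem-loop binding protein, read 9.42 and 9.45 in the GFP spleens against 9.62, 10.07, 9.78 and 9.63, and 9.02 and 9.32 against 9.72 and 10.52 in the lymph node. Its groups were apart in both tissues, but the spleen change was 0.34 (SE 0.21, adjusted p = 0.25 by limma) and the lymph node rise 0.95 (SE 0.24, adjusted p = 0.021). Lsm10, of the U7 particle that cuts histone pre-mRNA, rose in the spleen (0.81, SE 0.17) and changed by -0.21 (SE 0.20, adjusted p = 0.52) in the lymph node. This difference between tissues passed the interaction test (-1.03, adjusted p = 0.045).

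Histone chaperones and assembly factors rose in 10 of 19 cases in the spleen and 14 of 19 in the lymph node. Asf1b, which hands new H3 and H4 to the assembly machinery, read 7.91 and 8.37 in the GFP spleens against 9.72, 10.19, 9.57 and 9.71, and 8.09 and 8.38 against 9.90 and 10.29 in the lymph node. It rose by 1.66 (SE 0.20) and 1.86 (SE 0.23). Hat1, which acetylates new H4, rose by 0.92 (SE 0.14) and 1.16 (SE 0.16), and the H3-H4 binding protein gene Nasp by 1.31 (SE 0.28) and 1.66 (SE 0.33). Hira, a chaperone of the replacement histone H3.3, changed by 0.10 (adjusted p = 0.59 by limma) in the spleen and rose by 0.48 (SE 0.15, adjusted p = 0.047) in the lymph node. Daxx, another, passed in neither tissue.

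Replacement histones and other variants are mostly laid down outside replication and mostly have polyadenylated transcripts, while H2ax also makes a stem-loop transcript in S phase. Of 10 tested, 4 rose in the spleen and 3 in the lymph node, with medians of 0.42 and 0.34. H2ax, the variant phosphorylated at DNA breaks, read 8.75 and 9.47 against 10.83, 11.11, 10.69 and 10.55 in the spleen, and 9.04 and 8.86 against 10.69 and 11.45 in the lymph node. It rose by 1.68 (SE 0.25) and 2.12 (SE 0.29), and the centromeric variant gene Cenpa by 1.04 (SE 0.23) and 1.60 (SE 0.26). H2az1 rose by 0.99 (SE 0.12) and 0.44 (SE 0.14). The H3.3 genes H3f3a (0.03 and 0.26) and H3f3b (0.46 and 0.10) did not pass in either tissue.

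By their labels the samples are CD4+ T cells, but transcripts of other cell types were also measured, and many moved with the construct. None of the marker genes measured, of 9 cell types, lay under the 40th percentile on all 10 arrays. A marker can meet this through 1 group alone, and some lay under the percentile in whole groups. Examples are Rhag in the GFP lymph nodes (4.22 and 4.47) and Adipoq in the oncogenic Vav1 spleens (4.15 to 5.15). In the oncogenic Vav1 spleens, 8 of 10 neutrophil markers and 5 of 7 macrophage markers rose and all 7 B cell markers fell. In the oncogenic Vav1 lymph nodes, 10 of 10 erythroid and 8 of 10 neutrophil markers rose, while 7 of 7 stroma and fat markers and 3 of 6 T cell markers fell. The mean of the erythroid markers was 7.03 and 7.99 in the GFP spleens, 8.16 to 9.54 in the oncogenic Vav1 spleens, 6.20 and 6.31 in the GFP lymph nodes and 8.32 and 10.53 in the oncogenic Vav1 lymph nodes. The array with the highest histone mean, oncogenic Vav1 lymph node replicate 2, also had the highest erythroid and S phase means (10.53 and 9.41) and the lowest T cell mean (8.14). In the spleen, oncogenic Vav1 replicate 2 was highest in all 3. The part of these cells in the histone changes was not tested. Whether cells were sorted before RNA extraction was not given in the sources used here. In RNA pooled from many cells, more dividing cells and more histone RNA per dividing cell cannot be told apart.

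**Figure D4:**
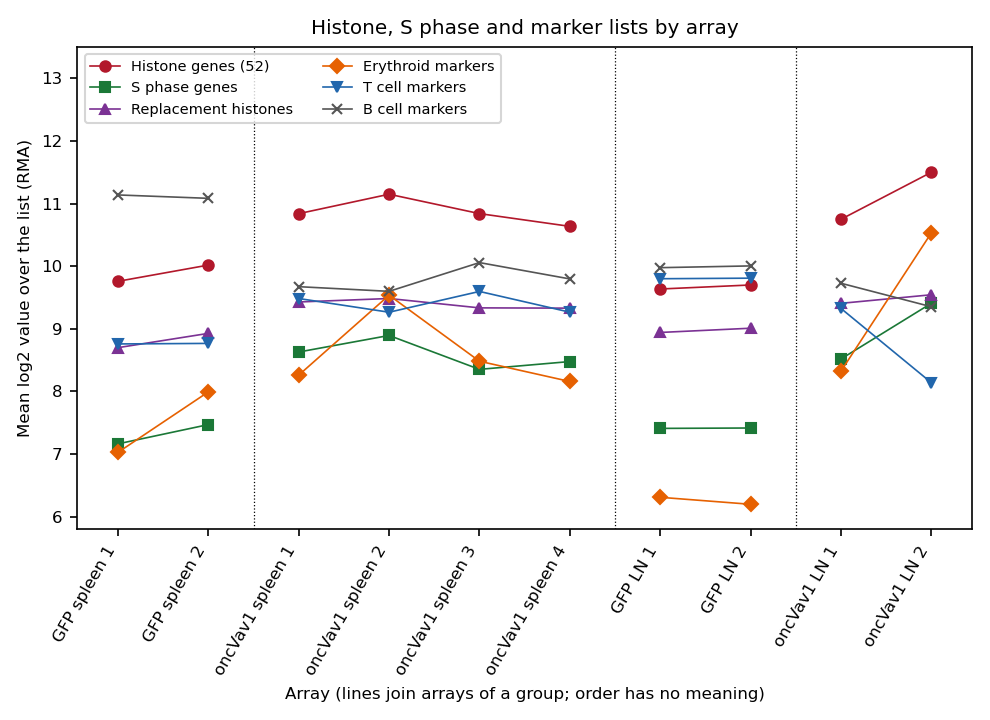
Mean log2 value of the 52 histone genes, of the S phase genes, of the replacement histones and of erythroid, T cell and B cell markers on each array, with lines joining the arrays of a group. Histone and S phase means are higher on all oncogenic Vav1 arrays than on the GFP arrays, and oncogenic Vav1 lymph node replicate 2 has the highest histone, S phase and erythroid means and the lowest T cell mean; levels of different lists are not compared.

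The intronic control probe sets, which report background, had medians of 5.87 and 5.69 on the GFP spleen arrays and 5.27 to 5.57 on the other 8. With this value as a covariate, 34 members passed in the spleen, where their median change was 1.34, and 49 in the lymph node, with a median of 1.45. Spleen changes that no longer passed included H1f1 (1.94, adjusted p = 0.058 by limma), H1f5 (1.73, adjusted p = 0.064), H2ac22 (0.97, adjusted p = 0.059), H2bc4 (0.72, adjusted p = 0.13), H4c1 (0.85, adjusted p = 0.050) and H4c11 (0.87, adjusted p = 0.089). Vav1 was measured by a probe set for which it is not known here whether it reads the introduced transcript. It read 9.63 and 9.83 in the GFP spleens, 9.99 to 10.30 in the oncogenic Vav1 spleens, 9.52 and 9.69 in the GFP lymph nodes and 9.27 and 10.17 in the oncogenic Vav1 lymph nodes.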

How the data were processed

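Total RNA was labelled with biotin and read on single-colour Affymetrix arrays, per the labels' protocols. Per the submitters' processing notes, the authors made the deposited log2 values with RMA, using R 3.6.3. The genome build, annotation version and any filter were not given in the sources used here. RMA includes a quantile step, but the deposited arrays had medians of 6.27 to 6.41 and 40th percentiles of 5.64 to 5.84, so their distributions were not identical. Values were used as deposited, and quantile normalization over these 10 arrays was an alternative (41 members called in the spleen in place of 46).

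Probe sets were named through the platform's gene table. Genes above the 40th percentile of the array's own values on 2 or more arrays were kept, 13393 of 19505. All of them were fitted in limma 3.58.1 (statmod 1.5.0, R 4.3.3; eBayes with a variance trend, two-sided, Benjamini-Hochberg adjusted p under 0.05). Construct changes per tissue came from a model of the 4 groups with a pooled spread (6 residual degrees of freedom), because groups of 2 arrays limit the precision. In other comparisons animals were a random block (correlation -0.35 for both tissues together, -0.11 for the rest). Changes are log2 differences, oncogenic Vav1 minus GFP or lymph node minus spleen, and folds are their antilogs. The fits were tested on simulated data.

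The members are genes whose symbol starts with Hist1h, Hist2h, Hist3h, Hist4h, H2ac, H2bc, H3c or H4c, or is H1f1 to H1f5. Array values are given, per class, for the 2 members of highest mean, the 2 of largest change and members that did not move with their class. Of a supporting list, up to 4 genes of smallest p per comparison are named, with Slbp, Npat, Casp8ap2, Mcm2 and Pcna. Rrm2, Nasp, Pold1, Hinfp, Gon4l, Hira, Daxx, H3f3a and H3f3b were named after their values were seen. The members and lists were chosen with earlier results of these data known. Arrays of equal replicate number carry different animal names across constructs, so the numbers were not read as pairs. The deviations of equally numbered arrays correlated at -0.06 to 0.30 across constructs and -0.03 to 0.51 within them. Those of the arrays of 1 animal correlated at -0.51 (ONCO2), 0.02 (ONCO3) and 0.03 (CTL2). In a group of 2 arrays the deviations are equal and opposite. The values for ONCO2 and CTL2 are therefore those of equally numbered arrays with the sign turned. The correlations thus cannot decide for or against the animal names, which were taken from the labels. Promoter letters come from the RefSeq table for GRCm38.p6, matched by the Entrez gene identifier that the platform's gene table gives for each symbol.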

Additional observations from a re-analysis of the deposited data

Results flagged for a closer look

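H3c3, a gene of the H3 class, had a single array apart from the others among the oncogenic Vav1 spleens. It read 11.22 in replicate 2 and 10.88, 10.92 and 10.87 in replicates 1, 3 and 4, so that the gap to the nearest array was 0.847 of the group's range, above Dixon's 95% critical value for 4 arrays. It was the only such gene among 53 members looked at in that group, and chance flags about 1 in 20 groups. The same array held the highest oncogenic Vav1 spleen value of 49 of the 52 members tested.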

How the results depend on the processing

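Groups of 2 arrays set the main limit. With arrays left out in turn, members called ran from 15 to 49 in the spleen, 41 to 51 in the lymph node, 47 to 51 over both tissues, 0 to 46 for the interaction, 0 to 10 between GFP tissues and 0 to 44 between oncogenic Vav1 tissues. The count was 12 for the lymph node arrays alone. Between GFP tissues it was 7 with array weights, 3 with the intronic covariate and 12 without animal ONCO3, a setting chosen after seeing the data that gave 1 for the interaction. The cause of these shifts was not tested. Signs turned for the H2bc21 spleen change (-0.0056 to 0.14 with arrays left out, lowest without GFP spleen replicate 2), for the lymph node changes of H1f2 (-0.09 to 1.01) and H2bc4 (-0.09 to 0.33), and for the median between oncogenic Vav1 tissues (-0.13 to 0.61), each lowest without oncogenic Vav1 lymph node replicate 2. Without ONCO3 these 3 were -0.0894, -0.0873 and -0.14. Each of the 6 comparisons was refitted under each planned setting that applied to it. Of these combinations of comparison and setting, counts of members stayed within 1.5 times in 110, some with 0 members both times. They moved beyond it in 12. Those of all genes called moved beyond 1.5 times in 42 combinations, so shifting counts were not particular to the histone genes.

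With the replicate number as a block, the counts were 46 in the spleen, 47 in the lymph node, 50 over both tissues, 0 for the interaction, 1 between GFP tissues and 0 between oncogenic Vav1 tissues. The numbers belong to different animals, so this block is no pairing.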
